A study of Arabidopsis thaliana with 12 samples.

Results

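The loci described here are the transcripts encoded by the plastid genome of *Arabidopsis thaliana*, taken as every locus whose identifier begins with ATCG. They were 133 of the 33601 loci counted. RNA came from whole etiolated seedlings of the Columbia background, 3 days old and grown in darkness, in 4 groups of 3 biological replicates. The groups were *pifq* dark linc, *pifq* dark, WT dark linc and WT dark, where *pifq* is the quadruple mutant pif1pif3pif4pif5, WT is the wild type and linc stands for 0.5 mM lincomycin in the medium. All groups shared the darkness, the age and a short pulse of white light that induced germination.

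Plastids keep a small genome of bacterial origin, which encodes part of the photosystems, the ATP synthase, an NADH dehydrogenase-like complex, ribosomal proteins and the core of a bacterial-type RNA polymerase. It is read by 2 kinds of polymerase, the plastid-encoded polymerase, which needs nucleus-encoded sigma factors, and the phage-type polymerases encoded in the nucleus. Lincomycin blocks translation on plastid ribosomes, and the PIF proteins are transcription factors that hold back light development in darkness. Many plastid genes are transcribed together as long precursors, and a poly(A) tail on plastid RNA is known as a mark for its decay. The libraries were built from 3′ ends captured on oligo(dT), so they hold the part of the plastid RNA that carried or contained A-rich stretches, and a change in count cannot be told apart from a change in tailing.

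Library totals were between 11495950 and 17612505 counts, and the ATCG loci received between 9286 and 42665 of them. Values below are CPM, the count as a share of the library total, scaled by TMM factors over the 12 libraries (normalized CPM), in the order of replicates 1, 2 and 3, and 3 counts, taken as the detection floor, equal 0.156 to 0.269 normalized CPM. *PIF1*, *PIF3* and *PIF5* were lower in *pifq* dark than in WT dark, at log2 fold changes of −4.82, −6.04 and −3.75, while *PIF4* counts were higher by 0.62, so that its counted 3′ end does not check the label. *PORA*, the protochlorophyllide oxidoreductase typical of etiolated tissue, was at 226, 269 and 261.5 normalized CPM in *pifq* dark and at 882, 1319 and 1197 in WT dark.

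Of the 133 loci, 22 had no count in any library and 31 had at most 3 counts in each, which is at or below the floor. Another 57 rose above the floor in some library and did not pass the filter of at least 5 CPM in at least 2 libraries, and 23 were tested in at least 1 comparison. Names are given only where the gene annotation at hand ties the identifier to a gene: 19 loci were annotated, 18 of them with a symbol, and together they held 83.7% of the plastid counts. The annotated loci included no *psa*, *pet* or *rbcL* gene, so the photosystem I, cytochrome and Rubisco transcripts stand among the identifiers without a name.

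Counts were concentrated in few loci. *atpE*, which encodes the epsilon subunit of the ATP synthase, held 50.4% of all plastid counts, and the 5 highest loci held 83.4%. These 5 were *atpE*, *rpl32* (a protein of the large ribosomal subunit), ATCG01130, *psbM* (a small subunit of photosystem II) and *rpoA* (the alpha subunit of the plastid-encoded polymerase). *atpB*, the beta subunit gene beside *atpE*, held 0.468%. Such shares describe capture at 3′ ends and are not levels per length.

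The coding sequences of these loci differ in their A-rich stretches, to which an oligo(dT) primer could also bind. In the plastid genome of the RefSeq TAIR10.1 build, coordinates counted on Pltd, *psbM* lies at Pltd:28707-28811 on the minus strand, *rpl32* at Pltd:113449-113607 on the plus strand, *atpE* at Pltd:52265-52663 and *rpoA* at Pltd:77901-78890, both on the minus strand. All are single coding exons. The whole coding sequences of *psbM* and *rpl32* and the coding 3′ ends of *atpE* (Pltd:52265-52384) and *rpoA* (Pltd:77901-78120) are shown because these loci carried most of the named counts and moved in opposite directions under lincomycin. Capitals mark runs of at least 6 A on the coding strand.
psbM: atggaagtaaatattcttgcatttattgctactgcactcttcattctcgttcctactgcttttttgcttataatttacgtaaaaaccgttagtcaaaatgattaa
rpl32: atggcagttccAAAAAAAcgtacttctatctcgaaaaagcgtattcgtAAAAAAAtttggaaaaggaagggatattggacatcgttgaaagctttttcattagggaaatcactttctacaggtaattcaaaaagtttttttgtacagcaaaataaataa
atpE: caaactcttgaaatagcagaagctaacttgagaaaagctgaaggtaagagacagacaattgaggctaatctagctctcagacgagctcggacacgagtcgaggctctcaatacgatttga
rpoA: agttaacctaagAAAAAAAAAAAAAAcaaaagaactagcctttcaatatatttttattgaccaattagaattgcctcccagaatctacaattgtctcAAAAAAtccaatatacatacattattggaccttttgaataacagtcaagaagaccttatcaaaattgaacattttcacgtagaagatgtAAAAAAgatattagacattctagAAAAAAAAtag

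A run of at least 6 A (AAAAAA, searched on the coding strand only, since the libraries were directional) stood in the last 500 coding bases of 35 of 83 plastid protein genes, or 42.2%. *rpoA* held the longest run of all 83, with 14 A, against a median of 5. The longest run had 7 A in *rpl32*, 5 A in *psbM* and *atpB* and 4 A in *atpE* and *ndhC*. The share of A in the same window was 39% in *rpoA*, 39.6% in *rpl32*, 33.8% in *atpE* and 28.6% in *psbM*, with a median of 31.2% over the 83 genes. The part of internal A runs in the counts was not tested.

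*atpB* and *atpE* are neighbours that overlap by 4 bases, the stretch in capitals at Pltd:52650-52673 on the minus strand, where *atpB* ends and *atpE* begins.
atpB-atpE junction: aattgaagaaATGAccttaaatct
*atpB* lies upstream of *atpE* on the same strand. The count of *atpE* was between 63.3 and 224 times that of *atpB* over the 12 libraries, and the part of joint transcripts in this ratio was not tested. *ndhC*, *ndhK* and *ndhJ*, subunit genes of the NADH dehydrogenase-like complex, also follow each other on the minus strand with gaps of 66 and 103 bases. Their total counts were 2486, 55 and 121, so the most downstream of them was not the highest.

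Before the comparisons, 2 libraries have to be set apart by their plastid counts. The ratio of *atpE* to *psbM* counts was 4.96 and 3.15 in *pifq* dark replicates 1 and 2 but 20.0 in replicate 3, and it was 22.2 and 18.5 in WT dark replicates 1 and 3 but 4.93 in replicate 2. In both libraries the value lay near that of the other genotype. The same libraries followed their labels at *PORA* and at the *PIF* loci. Both were the smallest libraries of their groups. *pifq* dark replicate 3 had 12821253 counts against 15448583 and 15454786 in the others, and WT dark replicate 2 had 12557224 against 17612505 and 17423421. The ratio was above the other replicates in the former and below them in the latter. A ratio within a library does not depend on the library total, and the part of depth was not tested. Counts of called loci are therefore given with and without them, a choice made after the data were seen.

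**Figure D1:**
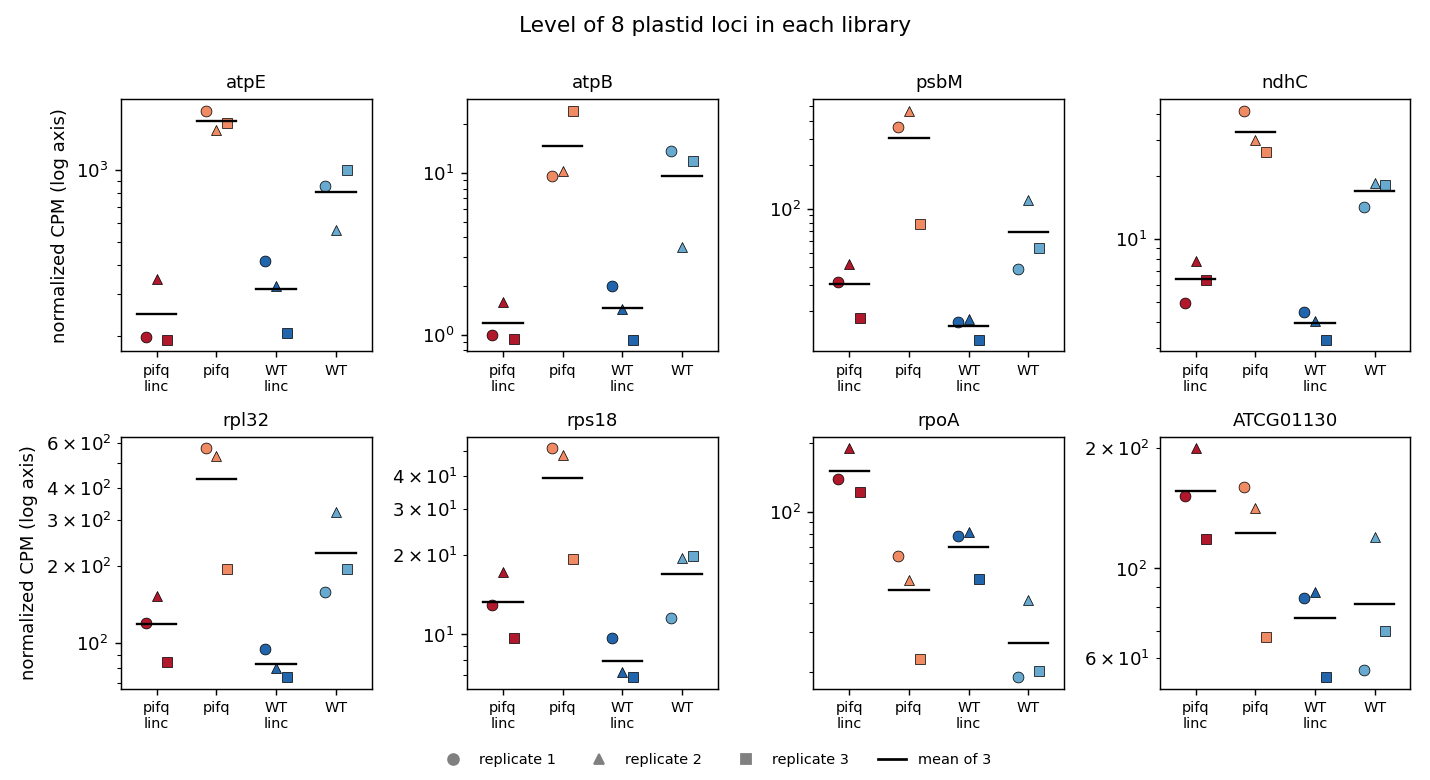
Normalized CPM (log axis, scaled per panel) of 8 plastid loci in each of the 12 libraries, with *pifq* dark linc, *pifq* dark, WT dark linc and WT dark along the horizontal axis and a line at the mean of 3. *atpE*, *atpB*, *psbM*, *ndhC*, *rpl32* and *rps18* lie lower with lincomycin in both genotypes, and *rpoA* lies higher, at 122 to 189 in *pifq* dark linc and 22.8 to 64.0 in *pifq* dark.

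As a share of all counts, plastid loci made up 0.0978% ± 0.0241 in *pifq* dark linc and 0.239% ± 0.0454 in *pifq* dark (SD, n = 3 each). In WT they made up 0.0777% ± 0.0222 in WT dark linc and 0.154% ± 0.0154 in WT dark (SD, n = 3 each). The 3 libraries of each lincomycin group lay below the 3 of their untreated group, and no test was made on this sum. The separation rested on *atpE*. Without it, the share was 0.0605% to 0.0903% in *pifq* dark linc and 0.0515% to 0.133% in *pifq* dark, and 0.0317% to 0.0513% in WT dark linc and 0.0470% to 0.0900% in WT dark, and the groups overlapped in both genotypes. In bulk seedlings, fewer plastids or plastid-bearing cells and less RNA per plastid cannot be told apart. *atpE* made up 25.8% ± 2.58 of the plastid counts in *pifq* dark linc and 57.6% ± 13.3 in *pifq* dark, and 43.1% ± 3.47 in WT dark linc and 57% ± 15.1 in WT dark.

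Mitochondrion-encoded loci (identifiers that begin with ATMG), the other organelle transcripts in these libraries, made up 0.322% ± 0.0332 of the counts in *pifq* dark linc and 0.234% ± 0.0618 in *pifq* dark, and 0.572% ± 0.131 in WT dark linc and 0.654% ± 0.0952 in WT dark. With lincomycin the median log2 fold change was 0.29 over the 3 ATMG loci tested in *pifq* and −0.06 over the 4 tested in WT.

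**Figure D2:**
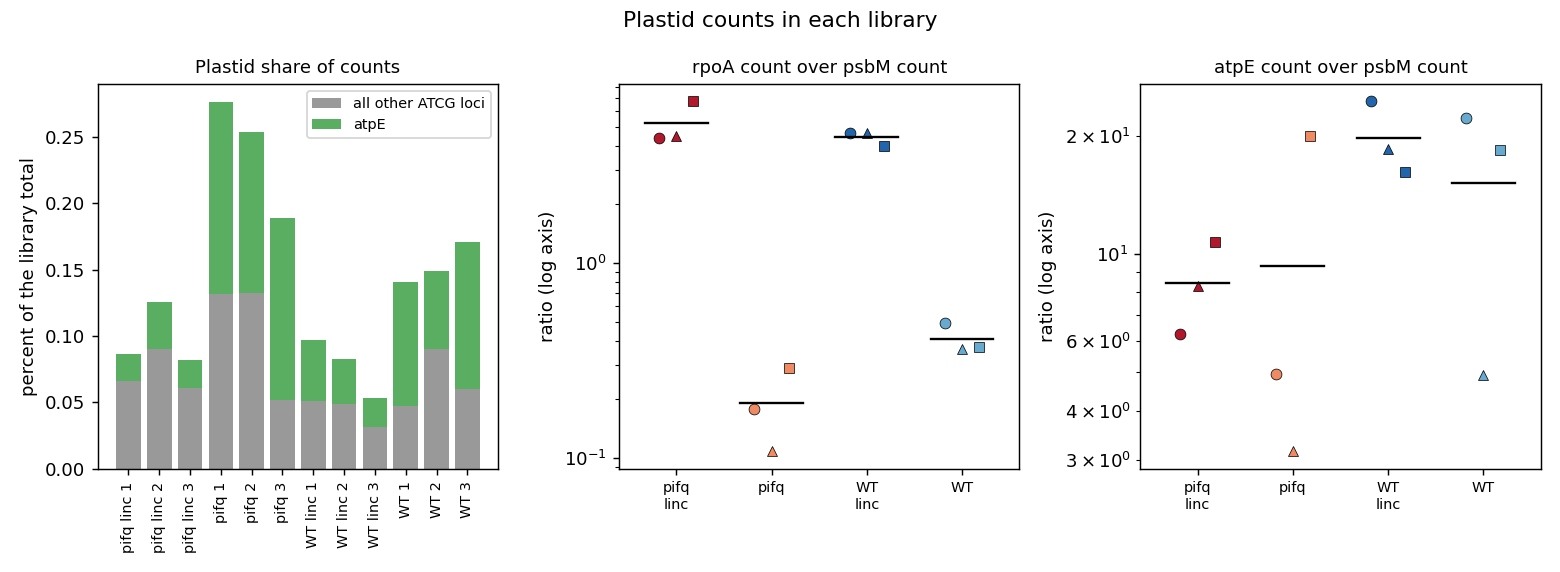
Left, share of each library's counts on ATCG loci in percent, split into *atpE* and the other loci. Middle and right, ratios of raw counts (log axis) of *rpoA* to *psbM* and of *atpE* to *psbM* per library (circle, triangle and square for replicates 1, 2 and 3, line at the mean), where *rpoA* to *psbM* is 3.99 to 6.77 with lincomycin and 0.108 to 0.494 without it, and the ratio of *atpE* to *psbM* shows *pifq* dark replicate 3 and WT dark replicate 2 away from their groups.

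The first question was what lincomycin did to plastid transcripts in the *pifq* mutant. *pifq* dark linc was compared with *pifq* dark over 22 plastid loci, of which 11 were lower, 3 were higher and 8 did not pass an adjusted p of at most 0.05 (quasi-likelihood test of edgeR, adjusted after Benjamini and Hochberg over all loci tested). Over all 13142 loci tested, 13.5% were lower and 9.68% higher. The median log2 fold change of the plastid loci was −0.80, against 0 over all loci. Of the 11 lower loci, 5 reached the filter only through *pifq* dark, the group in which they were high, namely *atpB*, *rps14*, ATCG00950, ATCG01170 and ATCG01180, so a locus like these could enter the test only by being high there. The other 6 reached it in either group. The replicate numbers paired these libraries, and with the number as a block 5 loci were higher, ATCG01130 among those added, and 11 were lower. The values of single loci given below are from the main fit, without the block. With the block, 2633 were higher and 2863 lower over all 13142 loci, more than in the main fit. The number of lower plastid loci was 6 of 18 tested without *pifq* dark replicate 1, 7 of 18 without replicate 2 and 13 of 22 without replicate 3. Over all loci, 1420, 1716 and 1694 were then lower. *rps14*, ATCG00950, ATCG01170 and ATCG01180, called lower in the main fit, were each tested in only 4 of the 6 fits that left out 1 library.

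*atpE*, *atpB* and *psbM* fell. *atpE* was at 199, 349.7 and 193 normalized CPM in *pifq* dark linc and at 1782, 1471 and 1579 in *pifq* dark. Every treated library was below every untreated one, at a log2 fold change of −2.72 ± 0.223 (SE) with an adjusted p of 2.04e-06. *atpB* was at 0.987, 1.59 and 0.942 normalized CPM in *pifq* dark linc and at 9.59, 10.3 and 24.2 in *pifq* dark, and its log2 fold change was −3.63 ± 0.399 with an adjusted p of 2.81e-05. The groups did not overlap, *pifq* dark replicate 3 was the highest, and every treated library was below the filter. *psbM* was at 31.7, 42.2 and 17.97 normalized CPM in *pifq* dark linc and at 359, 467 and 79.1 in *pifq* dark, with a log2 fold change of −3.31 ± 0.509 and an adjusted p of 4.74e-04. Here *pifq* dark replicate 3 was the lowest untreated library and still above the 3 treated ones.

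*ndhC*, a subunit of the complex that passes electrons around photosystem I, was at 4.93, 7.86 and 6.36 normalized CPM in *pifq* dark linc and at 41.3, 29.9 and 26.1 in *pifq* dark. It fell by 2.36 on the log2 scale (SE 0.207, adjusted p = 3.86e-06), with no overlap between the groups. Its downstream neighbours *ndhJ* and *ndhK* were too low for the test. *ndhJ* had 2, 2 and 2 raw counts in *pifq* dark linc and 24, 24 and 21 in *pifq* dark, and *ndhK* had 1, 0 and 3 against 13, 14 and 6. Both lay at or below the floor of 3 counts in every treated library.

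Transcripts of ribosomal proteins did not move together. *rpl32* was at 119.7, 153 and 84.8 normalized CPM in *pifq* dark linc and at 572, 531 and 194 in *pifq* dark, and fell by 1.87 on the log2 scale (SE 0.333, adjusted p = 0.00143). *rps18* was at 13.0, 17.2 and 9.65 in *pifq* dark linc and at 51.2, 48.2 and 19.3 in *pifq* dark, and fell by 1.59 (SE 0.309, adjusted p = 0.00267). In both, the groups did not overlap and *pifq* dark replicate 3 was the lowest untreated library. *rps14* fell by 2.21 (SE 0.434, adjusted p = 0.0028). *rps4*, which encodes a protein of the small subunit, fell by 1.32 (SE 0.355, adjusted p = 0.018), a call that was lost in 3 of 6 fits that left out 1 library and with DESeq2, where its adjusted p reached 0.089 at most over 14 alternatives. *rpl2* had a log2 fold change of −0.28 (SE 0.281, adjusted p = 0.51) and did not pass.

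*rpoA* rose. It was at 139, 189 and 122 normalized CPM in *pifq* dark linc and at 64.0, 50.7 and 22.8 in *pifq* dark. Each treated library was above each untreated one, with a log2 fold change of 1.70 ± 0.288 (SE) and an adjusted p of 0.00102, and the call held in all 14 alternatives. ATCG00800, annotated as a structural constituent of the ribosome, was at 8.655, 10.6 and 12.2 normalized CPM in *pifq* dark linc and at 5.59, 6.15 and 6.46 in *pifq* dark, and rose by 0.78 (SE 0.177, adjusted p = 0.00699). *ycf1* was at 9.64, 15.9 and 8.63 in *pifq* dark linc and at 6.87, 6.70 and 3.14 in *pifq* dark, and rose by 1.01 (SE 0.29, adjusted p = 0.0247). The call of *ycf1* was lost without *pifq* dark linc replicate 2. The annotation ties this symbol to a gene of 1032 coding bases at Pltd:109405-110436 and to one of 5361 at Pltd:123884-129244. Identifiers of the annotated single-copy loci rise with position. ATCG01000 stands before *rpl32* (ATCG01020, Pltd:113449-113607), as the shorter gene does, while the longer gene lies after it. The coding end of the shorter gene has an identical copy of 498 bases at Pltd:128215-128712. This copy lies inside the longer gene, which is on the minus strand, and away from its coding end. The coding end of the shorter gene also has a copy of 93.6% identity on chromosome 2, so the counts of *ycf1* are uncertain. ATCG01130, the highest locus without a name, was at 151, 199.5 and 118 in *pifq* dark linc and at 159, 141 and 67.5 in *pifq* dark, and these values overlapped.

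The loci without a name that fell were ATCG00950, ATCG01170 and ATCG01180. ATCG01170 had 4, 8 and 15 raw counts in *pifq* dark linc and 78, 97 and 56 in *pifq* dark, with a log2 fold change of −3.21 ± 0.346 and an adjusted p of 2.38e-05. ATCG01180 had 21, 21 and 10 raw counts in *pifq* dark linc and 87, 168 and 29 in *pifq* dark, and fell by 2.56 (SE 0.499, adjusted p = 0.0027). ATCG00950 had 20, 16 and 20 against 94, 128 and 29, and fell by 2.27 (SE 0.417, adjusted p = 0.0018). In all 3 loci the groups were separate, and in the counts of each *pifq* dark replicate 3 was the lowest untreated library. ATCG00950 and ATCG01180 had similar counts, with totals of 473 and 500 over the libraries. Both are counted among the lower loci, and whether they are separate loci was not tested.

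The same treatment was examined in the wild type. WT dark linc was compared with WT dark over 18 plastid loci, of which 6 were lower, 1 was higher and 11 did not pass. Over all 13455 loci tested, 2.91% were lower and 3.17% higher. The median log2 fold change of the plastid loci was −0.19, against 0 over all loci. *atpB* and *ndhC*, 2 of the 6 lower loci, reached the filter only through WT dark, where they were high, and the other 4 reached it in either group. Without WT dark replicate 2, 7 were lower and 1 higher, and over all loci 1388 were lower and 1315 higher.

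The 6 that fell in the wild type were *atpE*, *atpB*, *psbM*, *ndhC*, *rpl32* and *rps18*. *atpE* was at 416, 325 and 207 normalized CPM in WT dark linc and at 858, 562 and 1000.5 in WT dark, and fell by 1.36 on the log2 scale (SE 0.23, adjusted p = 0.00166). *psbM* was at 16.9, 17.5 and 12.7 in WT dark linc and at 38.6, 114 and 54.1 in WT dark, and fell by 2.14 (SE 0.3, adjusted p = 2.80e-04). In both the groups were separate, with WT dark replicate 2 the lowest untreated library for *atpE* and the highest for *psbM*. *ndhC* was at 4.44, 4.05 and 3.28 in WT dark linc and at 14.2, 18.5 and 18.2 in WT dark, and fell by 2.13 (SE 0.174, adjusted p = 1.02e-06), and its replicates spread the least of the 6 loci, with the smallest standard error. *atpB* was at 1.99, 1.45 and 0.928 in WT dark linc and at 13.6, 3.48 and 11.8 in WT dark, and fell by 2.79 (SE 0.416, adjusted p = 5.01e-04). *rpl32* was at 94.9, 80.0 and 73.7 in WT dark linc and at 158, 322 and 194 in WT dark, and fell by 1.44 (SE 0.211, adjusted p = 4.32e-04). *rps18* fell by 1.11 (SE 0.207, adjusted p = 0.00365), a call lost without WT dark linc replicate 3, at an adjusted p of 0.0587.

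*rpoA* was the locus that rose in the wild type. It was at 78.7, 81.2 and 50.8 normalized CPM in WT dark linc and at 19.1, 41.3 and 20.2 in WT dark. The groups were separate, with a log2 fold change of 1.39 ± 0.251 (SE) and an adjusted p of 0.00272, and the call held in all 14 alternatives. The ratio of *rpoA* to *psbM* counts was 4.65, 4.64 and 3.99 in WT dark linc and 0.494, 0.362 and 0.373 in WT dark, and 4.395, 4.485 and 6.77 in *pifq* dark linc and 0.178, 0.108 and 0.288 in *pifq* dark. This ratio within a library does not depend on the library total, and it lay apart between treated and untreated libraries of both genotypes. Both loci had already lain apart, in opposite directions, so the separation of their ratio is no separate support.

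**Figure D3:**
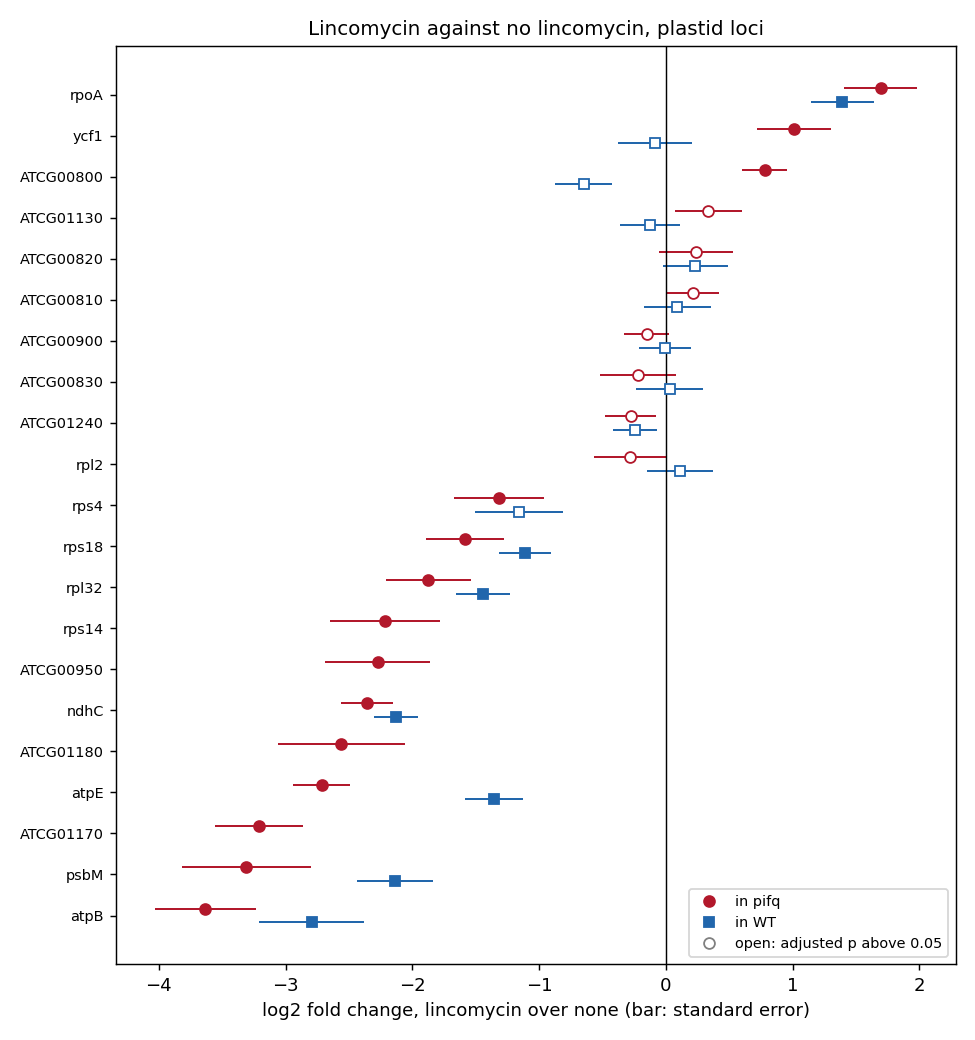
Log2 fold change of lincomycin over no lincomycin (horizontal axis, bars are standard errors) for plastid loci tested, in *pifq* (circles) and in WT (squares), with open symbols for an adjusted p above 0.05. *rpoA* lies to the right of 0 in both genotypes, at 1.70 and 1.39, and *atpB* lies farthest to the left, at −3.63 and −2.79.

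Of the 18 loci tested in both genotypes, 6 were lower in both, 1 was higher in both, 8 passed in neither and 3 passed in *pifq* alone. The same overlap over all loci is not given here, so these numbers do not show a trait of plastid loci. Passing in one genotype does not show a difference, which was tested as an interaction between genotype and treatment in a fit of all 12 libraries. Of 23 plastid loci, 1 had a higher and 1 a lower lincomycin response in *pifq* than in WT, and 21 did not pass. Over all 14040 loci tested, 1.23% were higher and 3.75% lower.

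ATCG00800 had the higher response. It was at 6.05, 3.76 and 3.99 normalized CPM in WT dark linc and at 6.80, 5.38 and 8.99 in WT dark, and the values of the mutant are given above. Its log2 fold change with lincomycin was 0.78 in *pifq* and −0.65 in WT, and the interaction was 1.43 ± 0.302 (SE) with an adjusted p of 0.00739. The interaction passed in all 20 alternatives, with adjusted p between 2.85e-04 and 0.0327. *atpE* had the lower response, with log2 fold changes of −2.72 in *pifq* and −1.36 in WT and an interaction of −1.35 ± 0.359 (adjusted p = 0.0346). It lost the call in 9 of 20 alternatives, over which the adjusted p was between 3.81e-04 and 0.109.

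The interactions of *psbM*, at −1.17 ± 0.67 (adjusted p = 0.465), *rpl32*, at −0.42 ± 0.446 (adjusted p = 0.762), *ndhC*, at −0.22 ± 0.289 (adjusted p = 0.82), and *rpoA*, at 0.31 ± 0.442 (adjusted p = 0.841), did not pass. Without *pifq* dark replicate 3 and WT dark replicate 2, 6 loci had a lower response in *pifq* and 1 had a higher response. Over all 13963 loci then tested, 729 had a lower and 316 a higher response. Among the 6 were *psbM* at −2.18 with an adjusted p of 1.11e-04 and ATCG00950 at −2.69 with an adjusted p of 1.14e-04. These 2 libraries were set apart by a ratio that includes *psbM*, so its larger value without them is no separate support. ATCG00950 reached 5 CPM only in *pifq* dark, where it was high.

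The effect of the mutation was compared first without lincomycin. In *pifq* dark against WT dark, 10 of 23 plastid loci were higher, 0 were lower and 13 did not pass, while 14 had an unadjusted p under 0.05. Over all 13456 loci tested, 21% were higher and 20% lower. The median log2 fold change of the plastid loci was 0.88, against 0 over all loci, and 21 of the 23 values were positive. *rps14*, ATCG00950, ATCG01170 and ATCG01180, 4 of the 10, reached the filter only through *pifq* dark, where they were high, and the other 6 reached it in either group. The count depended on single libraries. It was 17 higher and 0 lower without *pifq* dark replicate 3, 15 and 0 without WT dark replicate 2, 17 and 0 without both, and 3 higher without *pifq* dark replicate 1, 4 without *pifq* dark replicate 2, 4 without WT dark replicate 1 and 5 without WT dark replicate 3. In the same order, these fits called 2878, 2956, 3695, 2181, 2310, 2063 and 2089 higher over all loci tested. They tested 23, 21, 21, 20, 20, 23 and 23 plastid loci. DESeq2 called 0 lower as well.

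*psbM*, at the values given above for both untreated groups, had a log2 fold change of 2.13 ± 0.543 (SE) with an adjusted p of 0.00877. The groups overlapped, since *pifq* dark replicate 3, at 79.1 normalized CPM, was below WT dark replicate 2, at 114. *atpE* was higher by 0.99 (SE 0.199, adjusted p = 0.00203) and *ndhC* by 0.93 (SE 0.183, adjusted p = 0.00185), and in both every *pifq* library was above every WT library. *atpB* had a log2 fold change of 0.57 (SE 0.426, adjusted p = 0.312), and its groups overlapped.

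Among the ribosomal proteins, *rps14* was at 19.3, 19.1 and 4.67 normalized CPM in *pifq* dark and at 2.60, 7.72 and 2.34 in WT dark, with a log2 fold change of 1.83 ± 0.518 and an adjusted p of 0.0149. *rps18* was higher by 1.22 (SE 0.32, adjusted p = 0.0102). *rpl2*, for a protein of the large subunit, was at 66.4, 53.9 and 25.8 in *pifq* dark and at 16.1, 34.1 and 24.4 in WT dark, and was higher by 0.97 (SE 0.323, adjusted p = 0.0312). In these 3 loci *pifq* dark replicate 3 lay among the WT libraries. *rpl32*, at 0.94 (SE 0.361, adjusted p = 0.0571), and *rps4*, at 0.82 (SE 0.365, adjusted p = 0.0943), did not pass, nor did *rpoA*, at 0.78 (SE 0.358, adjusted p = 0.104).

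The calls of *rps14*, *rpl2*, ATCG00830 and ATCG01170 were lost without either *pifq* dark replicate 1 or 2 and without either WT dark replicate 1 or 3. That of *rps18* was lost without *pifq* dark replicate 1 and without WT dark replicate 1, and that of ATCG01180 without either WT dark replicate 1 or 3. ATCG01180 and ATCG00950 were tested in only 4 of the 6 fits that left out 1 library, since they did not reach the filter in the others. DESeq2 lost the calls of *rps14*, *rpl2*, ATCG00830 and ATCG01180, and library totals those of *rpl2*, ATCG00830 and ATCG01170. The highest adjusted p over the alternatives was 0.219 for ATCG00830, 0.148 for *rpl2*, 0.142 for ATCG01170, 0.0802 for ATCG01180, 0.0743 for *rps14* and 0.052 for *rps18*. The coding sequence of *rpl2* stands in the plastid genome in 2 identical copies at Pltd:84337-85843 on the minus strand and Pltd:152806-154312 on the plus strand, each with 2 coding exons, so reads cannot be placed on one of them. The counts of ATCG00830 were 0.922 to 1.13 times those of *rpl2* over the 12 libraries. ATCG00830 was higher in *pifq* dark by 0.87 (SE 0.318, adjusted p = 0.0471). By number, ATCG00830 stands between *rpoA* (ATCG00740) and *rpl32* (ATCG01020), as the *rpl2* copy at Pltd:84337-85843 does by position. Both are counted among the 10 higher loci, and the 2 calls may count 1 sequence 2 times. The remaining calls were ATCG01180 at 1.81 (SE 0.526, adjusted p = 0.0172), ATCG00950 at 1.77 (SE 0.455, adjusted p = 0.0091) and ATCG01170 at 0.88 (SE 0.286, adjusted p = 0.0291). ATCG01180 and ATCG00950, which had similar counts, are counted as separate calls, and whether they are separate loci was not tested. In this comparison, ATMG loci went the other way, with 3 of 4 tested lower in *pifq* dark and a median log2 fold change of −1.05.

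**Figure D4:**
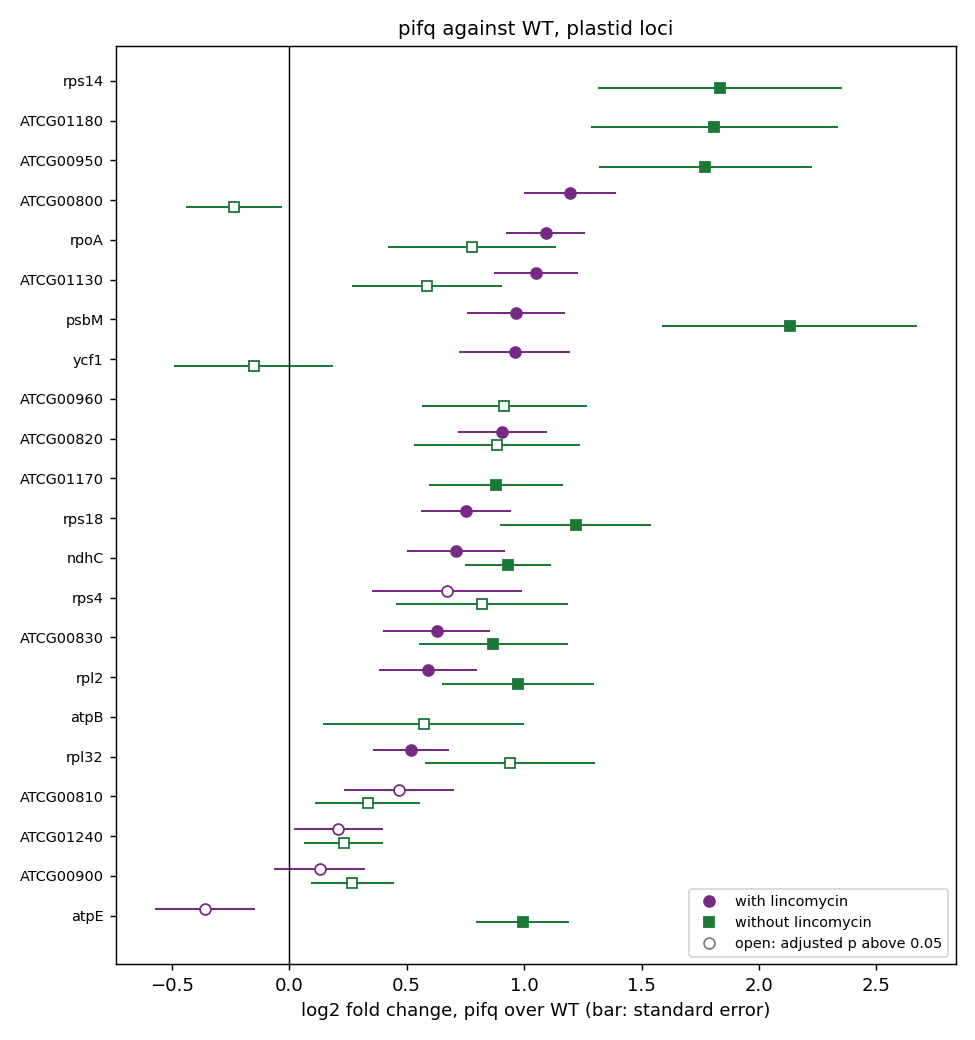
Log2 fold change of *pifq* over WT (horizontal axis, bars are standard errors) for plastid loci tested, with lincomycin (circles) and without it (squares), open symbols for an adjusted p above 0.05. In each setting the loci called there lie to the right of 0. *atpE* is at −0.36 with lincomycin and 0.99 without it. ATCG00800 is at 1.19 with it and −0.24 without it, and *ycf1* is at 0.96 with it and −0.15 without it.

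With lincomycin present, *pifq* dark linc was compared with WT dark linc over 17 plastid loci, of which 12 were higher, 0 lower and 5 did not pass, while 13 had an unadjusted p under 0.05. Over all 13557 loci tested, 17.4% were higher and 18.5% lower. The median log2 fold change of the plastid loci was 0.71, against 0 over all loci. Of the 12, 3 reached the filter only through *pifq* dark linc, where they were high, *ndhC* and ATCG00800 among them. The 12 also include ATCG00830 and *rpl2*, which may count 1 sequence 2 times. With all 12 libraries in one fit 6 were higher, and 7 of 15 tested were higher without *pifq* dark linc replicate 2. Over all loci, 2187 and 1767 were then higher.

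*rpoA* and ATCG00800 were among the largest of these differences. *rpoA* was higher by 1.09 (SE 0.169, adjusted p = 2.74e-05), with each *pifq* library above each WT library, and ATCG00800 by 1.19 (SE 0.196, adjusted p = 5.48e-05), also without overlap. ATCG01130, at 84.5, 87.5 and 53.6 normalized CPM in WT dark linc, was higher in *pifq* dark linc by 1.05 (SE 0.178, adjusted p = 7.66e-05). *psbM* was higher by 0.97 (SE 0.208, adjusted p = 9.25e-04) and *ycf1* by 0.96 (SE 0.236, adjusted p = 0.00291).

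The other calls with lincomycin were smaller. They were ATCG00820 at 0.91, *rps18* at 0.75, *ndhC* at 0.71, ATCG00830 at 0.63, *rpl2* at 0.59 and *rpl32* at 0.52, with adjusted p between 6.91e-04 and 0.0355. Over 14 alternatives, the call of ATCG00830 was lost in 5, with an adjusted p of up to 0.293, that of *rpl2* in 5, up to 0.261, and that of *rpl32* in 4, up to 0.227. ATCG00830 and *rpl2* lost it without *pifq* dark linc replicate 2 and without WT dark linc replicate 3, and *rpl32* without either of these and without WT dark linc replicate 2. The call of *rps18* was lost without *pifq* dark linc replicate 2 and that of *ndhC* without WT dark linc replicate 3, while those of *rps18* and *psbM* were lost with all 12 libraries in one fit. *atpE* was at −0.36 (SE 0.213, adjusted p = 0.202) and did not pass. Of the 4 ATMG loci tested, 2 were lower in *pifq* dark linc.

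The nuclear genes that serve plastid transcription and RNA turnover were followed beside these loci, in a list of 24 genes. It held sigma factors, phage-type polymerases, enzymes of RNA turnover and proteins that bind plastid transcripts. With lincomycin 2 rose and 10 fell in *pifq*, with 5 not passing and 7 not tested, and 2 rose and 6 fell in WT, with 9 not passing and 7 not tested. Over all loci tested with lincomycin, 9.68% rose and 13.5% fell in *pifq*, and 3.17% rose and 2.91% fell in WT. In *pifq* dark against WT dark, 9 of the list were higher and 1 lower, with 21% higher and 20% lower over all loci. *RPOTp* reached the filter only through the lincomycin libraries of either genotype, *SIG4* and *PPR10* only through *pifq* dark in the mutant, and *SIG1* only through WT dark in the wild type, in each case where the gene was high.

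The 2 that rose in both genotypes were *RPOTp*, the phage-type polymerase of plastids, and *RNJ*, a plastid RNase J. *RPOTp* was at 5.998, 5.84 and 7.85 normalized CPM in *pifq* dark linc and at 1.12, 2.36 and 2.60 in *pifq* dark, and its log2 fold change was 1.68 ± 0.275 (SE) with an adjusted p of 7.66e-04. In WT it was at 6.58, 5.94 and 6.12 in WT dark linc and at 2.545, 3.10 and 2.65 in WT dark, with 1.17 ± 0.19 and an adjusted p of 0.0011. Its groups were separate in both genotypes. *RNJ* rose by 1.18 in *pifq* (SE 0.146, adjusted p = 7.87e-05) and by 1.18 in WT (SE 0.124, adjusted p = 1.51e-05).

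*SIG1*, a sigma factor of the plastid-encoded polymerase, was at 9.34, 9.16 and 8.48 normalized CPM in *pifq* dark linc and at 40.75, 40.3 and 49.3 in *pifq* dark, and fell by 2.28 on the log2 scale (SE 0.134, adjusted p = 1.23e-07). In WT it was at 4.21, 3.84 and 5.73 in WT dark linc and at 12.4, 15.7 and 14.75 in WT dark, and fell by 1.62 (SE 0.177, adjusted p = 2.36e-05). *pifq* dark replicate 3 and WT dark replicate 2, which stood apart by their plastid counts, lay beside the other replicates of their groups at *SIG1*. *SIG4* fell in both genotypes, by 1.29 in *pifq* and 0.60 in WT, and *SIG2* fell in *pifq* by 0.59 (SE 0.123, adjusted p = 0.00404).

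*CSP41A* and *CSP41B*, which encode RNA-binding proteins of chloroplasts with endonuclease activity, and *HCF173*, a factor for *psbA* translation, fell more in *pifq* than in WT. *CSP41A* fell by 2.29 in *pifq* and 0.62 in WT, with an interaction of −1.66 ± 0.194 (adjusted p = 5.53e-05). *CSP41B* fell by 2.13 and 0.59, with an interaction of −1.53 ± 0.176 (adjusted p = 5.39e-05), and *HCF173* by 2.42 and 0.87, with an interaction of −1.54 ± 0.274 (adjusted p = 0.00213). These were the 3 of 18 tested genes of the list with an interaction. *HCF107*, a factor that binds the *psbH* transcript, fell by 1.09 in *pifq* and 1.31 in WT. *MRL1*, *CRP1* and *PPR10*, which belong to the pentatricopeptide repeat proteins, fell in *pifq* by 0.71, 0.85 and 0.66. In WT these 3 did not pass, at −0.15, −0.32 and −0.17. *PGR3*, another protein of the list that binds plastid transcripts, did not pass in *pifq*, at 0.02 (adjusted p = 0.95), nor in WT, at 0.005 (adjusted p = 0.989).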

How the data were processed

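The counts deposited by the authors are raw reads per locus and library, without normalization. Per the labels and the study's methods, polyA-tailed 3′-end fragments were captured on oligo(dT), sequenced directionally and aligned to the TAIR10 representative transcriptome with Bowtie 0.12.7, with 1 mismatch allowed, and reads were kept where they fell in the last 500 bp of a coding-strand transcript. How reads with several matches were treated is not given in the sources used here.

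Counts were compared with the quasi-likelihood test of edgeR 4.0.16 (R 4.3.3, TMM, Benjamini-Hochberg), on the 6 libraries of each comparison, over all loci that reached 5 CPM in 2 or more. Loci with an adjusted p up to 0.05 were called. Standard errors were derived from the F statistic, as the log2 fold change over its square root. The test was tried on simulated counts with known changes. Alternatives were RLE size factors, library totals, TMM from nuclear loci, DESeq2 1.42.0, all 12 libraries in one fit, the replicate block, no filter or 1 CPM, and leaving out each library. Total counts per library limit precision as the floor of 3 counts states, for counting error only.

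The loci, lists and tests were chosen with earlier results of these data known. Named are the called loci, the 2 highest of each role and those with at least 1% of the plastid counts. Symbols came from the study's gene lists and RefSeq notes, sequences from RefSeq TAIR10.1, whose 3′ ends were not compared with TAIR10, and copies were sought with BLAST 2.17.0 (at least 90% identity over 50 bases). Classes by polymerase could not be applied, since most members have no symbol here. Counts cover every member, and some named loci are not reported here. Deviations of same-numbered libraries from their group means correlated at 0.421, 0.369 and 0.539 between *pifq* dark linc and *pifq* dark. In no other comparison did all 3 pairs exceed 0.1. The main fits did not use this pairing, which entered only the alternative with the replicate block.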

Additional observations from a re-analysis of the deposited data

Results flagged for a closer look

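The lincomycin response differed between *pifq* and WT by the interaction test over all 12 libraries for *atpE*, by −1.35 on the log2 scale, and for ATCG00800, by 1.43. ATCG00800 was higher with lincomycin in *pifq* and had a negative value in WT, whereas *atpE* fell in both and by more in *pifq*. Among the nuclear genes of plastid transcription and RNA turnover, the response was lower in *pifq* for *CSP41A*, by −1.66, for *CSP41B*, by −1.53, and for *HCF173*, by −1.54. These 3 were also higher in *pifq* dark than in WT dark, by 2.21, 2.33 and 1.89. Groups of 3 libraries were not searched for single outlying values.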

How the results depend on the processing

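No called locus changed sign under the alternatives run. Over the values of single loci, 1430 kept their side of the threshold, 77 passed only in the alternative and 61 lost their call, and the cause was not tested. A locus not tested in an alternative was left out of these numbers. Without a filter on low counts, plastid loci were 35 higher and 1 lower in *pifq* dark against WT dark, where 110 were tested, 6 higher and 22 lower in WT dark linc against WT dark, 5 higher and 27 lower in *pifq* dark linc against *pifq* dark, 22 higher and 3 lower in *pifq* dark linc against WT dark linc, and 3 lower in the interaction. At 1 CPM plastid loci were 21 higher in *pifq* dark against WT dark, 2 higher and 10 lower in WT dark linc against WT dark, 21 lower in *pifq* dark linc against *pifq* dark, and 2 lower in *pifq* dark linc against WT dark linc. Of these loci, 44, 38, 44 and 37 were tested, in that order. Over all loci, 3294 of 17739 were higher in the first, and 509 were higher and 448 lower of 17685 in the second. The others held 1986 lower of 17448 and 2969 lower of 17702. These filters tested more loci. With the replicate number as a block, 17 were higher in *pifq* dark against WT dark, 2 higher in WT dark linc against WT dark, 5 higher in *pifq* dark linc against *pifq* dark, and 3 lower in the interaction, and the block ended no call. Over all loci, the block gave 3343 of 13456, 1020 of 13455 and 2633 of 13142 higher, and 701 of 14040 lower. With library totals, 1 was lower in *pifq* dark against WT dark, 6 were higher in *pifq* dark linc against *pifq* dark, and 0 were lower in the interaction. Over all loci, 6283 of 13456 were lower in the first, 5248 of 13142 higher in the second and 270 of 14040 lower in the interaction. With all 12 libraries in one fit, 6 were higher in *pifq* dark linc against WT dark linc, and 2187 of 13557 over all loci. Without both libraries that stood apart, an alternative chosen after seeing the data, 17 were higher in *pifq* dark against WT dark and 6 lower in the interaction. Over all loci, 3695 of 13244 were then higher in the former and 729 of 13963 lower in the latter.

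With library totals, the median log2 fold change over all loci was −0.37 in *pifq* dark against WT dark, 0.32 in *pifq* dark linc against *pifq* dark and 0.33 in the interaction, and the share of higher among all calls was then 16.8%, 85.8% and 85.1%, against 51.3%, 41.7% and 24.6% with TMM. Leaving out 1 library gave 3 to 17 higher and 0 lower in *pifq* dark against WT dark, 1 higher and 5 to 8 lower in WT dark linc against WT dark, 2 to 4 higher and 6 to 13 lower in *pifq* dark linc against *pifq* dark, with 6 without *pifq* dark replicate 1 and 7 without *pifq* dark replicate 2, 7 to 13 higher and 0 to 1 lower in *pifq* dark linc against WT dark linc, and 1 higher and 0 to 4 lower in the interaction. Over all loci, these fits gave 2063 to 2956 higher and 1998 to 2778 lower in *pifq* dark against WT dark. In WT dark linc against WT dark they gave 157 to 1315 higher and 203 to 1388 lower. In *pifq* dark linc against *pifq* dark they gave 669 to 1275 higher and 1198 to 1716 lower. There, 18 plastid loci were tested without *pifq* dark replicate 1 or 2, against 22 in the main fit. In *pifq* dark linc against WT dark linc they gave 1767 to 2446 higher and 1890 to 2570 lower. In the interaction they gave 101 to 214 higher and 389 to 563 lower. Plastid shares then were 0.084% to 0.106% in *pifq* dark linc, 0.221% to 0.265% in *pifq* dark, 0.0681% to 0.0899% in WT dark linc and 0.145% to 0.16% in WT dark. The share without rRNA and tRNA loci was not run, since those identifiers have no annotation here. Depth limits the 57 loci above the floor that were not tested.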

Other observations

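The annotated loci too low for any test included *rpl20*, *clpP* and *cemA*, beside *ndhJ* and *ndhK*. *rpl20*, for a protein of the large ribosomal subunit, had 45, 72 and 17 raw counts in *pifq* dark linc and 27, 25 and 13 in *pifq* dark, and 18, 24 and 31 in WT dark linc and 18, 25 and 27 in WT dark. *clpP*, a subunit of the plastid Clp protease, had 9, 10 and 7 in *pifq* dark linc and 9, 14 and 4 in *pifq* dark, and 5, 2 and 5 in WT dark linc and 2, 4 and 2 in WT dark. *cemA*, an envelope membrane protein, had 0 to 3 counts in every library.

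The counts of ATCG00900 were 0.801 to 1.11 times those of ATCG01240 over the 12 libraries, with totals of 2373 and 2486. The close match resembles that of ATCG00830 and *rpl2*, with totals of 5802 and 5817. Similar totals were also found for ATCG00950 and ATCG01180, at 473 and 500, and for ATCG00960 and ATCG01170, at 433 and 457. Since *rpl2* has 2 identical copies, ATCG00830 and *rpl2* may count 1 sequence 2 times. Whether these pairs are copies of the same sequence was not tested.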
